A study of Mus musculus with 48 samples.

Results

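The 10 genes described here encode the calcium-binding alarmins S100a8 and S100a9, the secreted proteins Lcn2 and Retnlg, and the myeloid receptors Csf3r, Fpr1, Fpr2, Trem1, Clec4d and Clec4e. They were chosen by name as genes of neutrophils and related myeloid cells, out of 18782 genes in a table of RNA-seq counts from the mouse thoracic aorta. All 10 passed the filter on low counts, as did 14431 genes in all. The 48 wild-type C57BL/6J mice were 3 weeks old when the experiment began. Mice of the BAPN groups drank water with 0.4% β-aminopropionitrile (BAPN) for 28 days, and sex-matched controls drank normal water. BAPN inhibits lysyl oxidase, the enzyme that crosslinks collagen and elastin in the aortic wall. The groups were 10 male controls (MaCon), 4 BAPN-treated males without dissection or aneurysm (MaNonAD), 7 BAPN-treated males with dissection or aneurysm (MaAAD), 10 female controls (FeCon), 8 BAPN-treated females without either lesion (FeNonAD) and 9 BAPN-treated females with dissection or aneurysm (FeAAD). Only mice alive on day 28 were sequenced, so the AAD and NonAD groups were formed by outcome and not assigned.

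Neutrophils are short-lived white blood cells that leave the circulation for injured tissue. S100A8 and S100A9 form the heterodimer calprotectin, which fills much of the neutrophil cytosol, is also made by monocytes, and is released by activated or dying cells as a danger signal. G-CSF, acting through the receptor encoded by Csf3r, drives the production and survival of neutrophils, while formyl peptide receptors steer them towards products of bacteria and damaged mitochondria, and TREM1 and the C-type lectins MCL (Clec4d) and Mincle (Clec4e) amplify the inflammatory response of neutrophils, monocytes and macrophages.

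Library totals ranged from 13548003 to 17281262 counts, and levels below are given in CPM, which are counts scaled to library size with trimmed mean of M values (TMM) factors. A single count in FeAAD9, for example, was worth 0.0604 CPM. Libraries MaAAD7, FeAAD5 and FeAAD9 stood apart. MaAAD7 had the highest level of all 10 members in its group, as did FeAAD5 in its group, and FeAAD9 ranked next for 9 members and last for Retnlg. The members' calls are therefore also given from a refit without them, a choice made after the values were seen.

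The members were far higher in aortas with dissection or aneurysm than in controls of the same sex. Of the 10 members, 9 were called higher in MaAAD than in MaCon, where 9.18% of all tested genes were called higher, and 10 were called higher in FeAAD than in FeCon, where 9.94% of all tested genes were. A call required an adjusted p below 0.05 and a change of 1 or more on the log2 scale in either direction, in edgeR's quasi-likelihood test with Benjamini-Hochberg adjustment over all tested genes. The median log2 fold change of the members was 4.45 in males and 4.99 in females, beside -0.03 and 0.00 over all tested genes. It was 3.93 and 2.56 over the 9 members still tested when the 3 libraries were left out. Retnlg was not called in males. In bulk tissue, more cells of a type and more RNA per cell cannot be told apart.

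The summed level of the 10 members showed how unevenly these increases were spread. It ranged from 1.87 to 11.8 CPM in MaCon, with a median of 4.18, and from 17.5 to 361 CPM in MaAAD, with a median of 49.6. It ranged from 3.96 to 15.4 CPM in FeCon, with a median of 5.17, and from 10.1 to 1127 CPM in FeAAD, with a median of 22.2. The male groups did not overlap and the female groups did. MaAAD7 alone held 51.5% of the summed level of MaAAD. FeAAD5 held 72.0% of that of FeAAD, and FeAAD5 and FeAAD9 together held 89.7%.

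**Figure D1:**
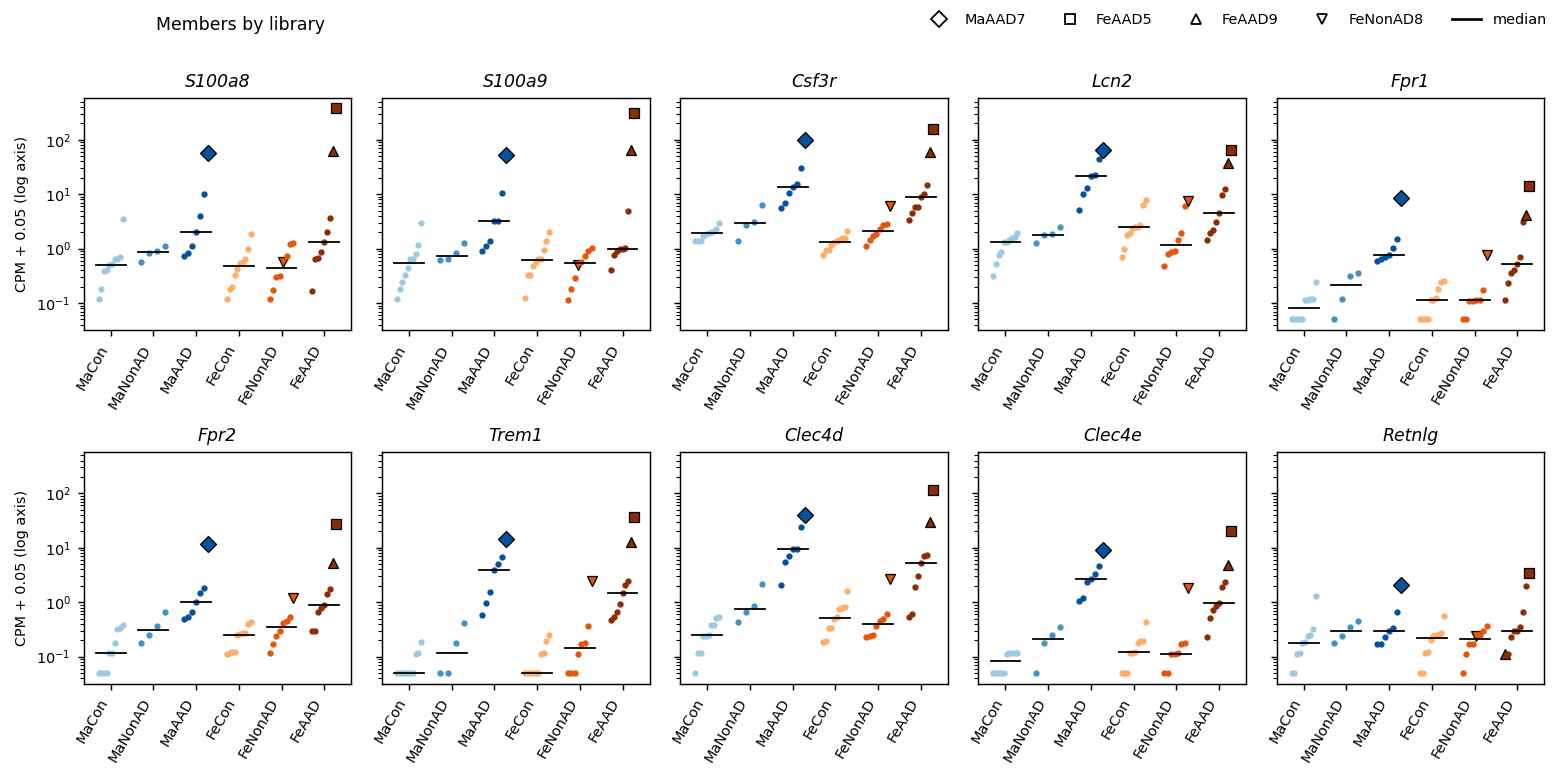
Level of each member in every library, as CPM plus 0.05 on a log axis, by group; bars mark medians, and larger outlined symbols mark MaAAD7, FeAAD5, FeAAD9 and FeNonAD8. Csf3r and Trem1 lie higher in every AAD library than in any control of the same sex, whereas most S100a8 and Retnlg points of FeAAD lie among the FeCon points.

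S100a8 and S100a9 are neighbours on chromosome 3, at chr3:90668978-90670035 on the plus strand and chr3:90692632-90695721 on the minus strand of GRCm38. S100a8 ranged from 0.0668 to 3.41 CPM in MaCon (median 0.456), and the 4 MaNonAD libraries held 0.509, 0.789, 0.838 and 1.07 CPM. In MaAAD it ranged from 0.676 to 56.8 CPM, with a median of 1.98. Only 3 of the 7 MaAAD libraries lay above the highest control, MaCon3, and MaAAD7 held 75.5% of the group's summed level. S100a8 ranged from 0.0709 to 1.77 CPM in FeCon (median 0.428), from 0.0666 to 1.24 CPM in FeNonAD (median 0.386) and from 0.12 to 374 CPM in FeAAD (median 1.3). FeAAD5 held 6331 counts and FeAAD9 1019 counts, while none of the other 7 FeAAD libraries exceeded 3.54 CPM, so 98.0% of the group's summed level came from 2 mice. Against controls, the log2 fold change was 3.92 ± 1.06 (SE) in MaAAD (edgeR adjusted p = 0.00318) and 6.5 ± 1.12 in FeAAD (adjusted p = 6.9e-06).

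S100a9 ranged from 0.0668 to 2.94 CPM in MaCon (median 0.492) and from 0.838 to 53.2 CPM in MaAAD (median 3.10), with 0.573, 0.591, 0.778 and 1.20 CPM in the MaNonAD libraries. In females it ranged from 0.0733 to 1.96 CPM in FeCon (median 0.556), from 0.062 to 0.99 CPM in FeNonAD (median 0.485) and from 0.36 to 314 CPM in FeAAD (median 0.942). The distributions of both AAD groups overlapped those of their controls, and 4 of 7 MaAAD and 3 of 9 FeAAD libraries lay above the highest control. Against controls, S100a9 had a log2 fold change of 3.88 ± 1.02 in MaAAD (edgeR adjusted p = 0.00234) and 5.91 ± 1.04 in FeAAD (adjusted p = 9.31e-06). The count of S100a9 per count of S100a8 ranged over libraries from 0.778 to 1.69 in MaAAD (median 1.04) and from 0.5 to 3.0 in FeAAD (median 1.14), beside 0.429 to 2.43 in MaCon (median 0.95) and 0.143 to 4.0 in FeCon (median 1.51). Over the 16 AAD libraries, Spearman's rho between the 2 genes was 0.90, a description of libraries in which the same few mice were highest for both.

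Without MaAAD7, FeAAD5 and FeAAD9, the alarmins were no longer called in females. The log2 fold change of S100a8 in FeAAD against FeCon was then 1.25 ± 0.62 (edgeR adjusted p = 0.106) and that of S100a9 was 0.95 ± 0.57 (adjusted p = 0.188). In males both stayed called, at 2.12 ± 0.60 (adjusted p = 0.00506) and 2.22 ± 0.56 (adjusted p = 0.00174). When MaAAD7 was the only library left out, the male log2 fold changes were 2.12 and 2.23 and neither was called. DESeq2 called both alarmins in FeAAD with smaller log2 fold changes, 3.91 for S100a8 and 3.57 for S100a9, and limma voom with quality weights called neither, at 1.66 (adjusted p = 0.0979) and 1.19 (adjusted p = 0.176). By default DESeq2 replaces outlying counts in larger groups, and quality weights lower the weight of variable libraries. How far either acted on the high libraries was not tested. The increase in FeAAD was thus carried by FeAAD5 and FeAAD9, and for the remaining 7 libraries it did not pass the test.

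The secreted proteins Lcn2 and Retnlg behaved differently from each other. Lcn2 encodes lipocalin 2, a neutrophil granule protein that binds iron-loaded bacterial siderophores and is also made by stressed epithelial and vascular cells; it lies at chr2:32384633-32388252 on the minus strand. It ranged from 0.267 to 1.86 CPM in MaCon (median 1.27) and from 5.04 to 65.7 CPM in MaAAD (median 21.1), and the MaNonAD libraries held 1.20, 1.72, 1.80 and 2.50 CPM. All 7 MaAAD libraries thus lay above every MaCon and MaNonAD library. In females Lcn2 ranged from 0.651 to 7.79 CPM in FeCon (median 2.40), from 0.429 to 7.33 CPM in FeNonAD (median 1.12) and from 1.41 to 63.9 CPM in FeAAD (median 4.38), and only 4 of 9 FeAAD libraries lay above the highest control. The log2 fold change against controls was 4.53 ± 0.66 in MaAAD (edgeR adjusted p = 5.7e-07) and 2.35 ± 0.58 in FeAAD (adjusted p = 0.00093). Without the 3 high libraries it was 4.11 ± 0.53 in MaAAD (adjusted p = 7.47e-08) and 0.76 ± 0.49 in FeAAD (adjusted p = 0.231).

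Retnlg, a resistin-like gene of mouse bone marrow and circulating neutrophils at chr16:48872621-48874496 on the plus strand, had the smallest fold change of the members in both sexes. It ranged from 0 to 1.27 CPM in MaCon (median 0.132) and from 0.121 to 1.98 CPM in MaAAD (median 0.248), where 1 of 7 libraries lay above the highest control. It ranged from 0 to 0.498 CPM in FeCon (median 0.169), from 0 to 0.31 CPM in FeNonAD (median 0.157) and from 0.0604 to 3.43 CPM in FeAAD (median 0.250), where 3 of 9 libraries did. The groups overlapped in both sexes, and counts did not exceed 58 in any library. Its log2 fold change was 1.11 ± 0.70 in MaAAD (edgeR adjusted p = 0.223) and 2.26 ± 0.68 in FeAAD (adjusted p = 0.00636). FeAAD9, among the highest libraries for the other members, had 1 count of Retnlg, while FeAAD5 had 58 and FeAAD2 had 32. The call in FeAAD was lost without FeAAD5, at a log2 fold change of 1.48, and Retnlg was called in MaAAD without MaCon3, at 2.07. It did not pass the filter on low counts when the 3 high libraries were left out.

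Csf3r, at chr4:126024550-126044440 on the plus strand, encodes the G-CSF receptor and separated AAD from controls in every mouse. It ranged from 1.33 to 2.94 CPM in MaCon (median 1.85) and from 5.47 to 100 CPM in MaAAD (median 13.3), with 1.34, 2.69, 3.01 and 6.23 CPM in the MaNonAD libraries. In females it ranged from 0.709 to 2.10 CPM in FeCon (median 1.29), from 1.05 to 5.99 CPM in FeNonAD (median 2.06) and from 3.28 to 157 CPM in FeAAD (median 8.67). No AAD library of either sex reached down to its controls, and NonAD libraries overlapped both. Relative to controls, its log2 fold change was 3.79 ± 0.60 in MaAAD (edgeR adjusted p = 2.08e-06) and 4.55 ± 0.61 in FeAAD (adjusted p = 6.26e-08). It was 2.86 ± 0.32 and 2.56 ± 0.33 without the 3 high libraries, with adjusted p of 5.21e-09 and 4.37e-08.

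Fpr1 and Fpr2 encode the formyl peptide receptors and are adjacent on chromosome 17, at chr17:17876471-17883940 on the minus strand and chr17:17887824-17893952 on the plus strand. Fpr1 did not exceed 3 counts in any of the 20 control libraries, with levels of 0 to 0.196 CPM in MaCon and 0 to 0.208 CPM in FeCon. It ranged from 0.553 to 8.39 CPM in MaAAD (median 0.719) and from 0.0619 to 14.2 CPM in FeAAD (median 0.480), and the MaNonAD libraries held 0, 0.0668, 0.263 and 0.299 CPM and FeNonAD ranged from 0 to 0.701 CPM (median 0.0616). All 7 MaAAD and 7 of 9 FeAAD libraries lay above the highest control of their sex. Set against 3 counts per control library, mean Fpr1 was at least 9.57-fold higher in MaAAD and at least 12.5-fold higher in FeAAD, bounds that were 4.13 and 3.48 without the 3 high libraries. The fitted log2 fold change, which for so few control counts depends on the prior count, was 5.14 ± 0.93 in males (edgeR adjusted p = 2.07e-05) and 4.97 ± 0.85 in females (adjusted p = 6.14e-06).

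Fpr2 ranged from 0 to 0.327 CPM in MaCon (median 0.0665) and from 0.434 to 11.7 CPM in MaAAD (median 0.964), and the MaNonAD libraries held 0.131, 0.20, 0.318 and 0.599 CPM. It ranged from 0.0633 to 0.391 CPM in FeCon (median 0.205), from 0.0666 to 1.15 CPM in FeNonAD (median 0.308) and from 0.244 to 27.0 CPM in FeAAD (median 0.824). MaAAD did not overlap MaCon but overlapped MaNonAD, and 7 of 9 FeAAD libraries lay above the highest FeCon library. The log2 fold change against controls was 4.36 ± 0.85 in MaAAD (edgeR adjusted p = 6.3e-05) and 4.45 ± 0.78 in FeAAD (adjusted p = 9.59e-06). The mouse genome holds several close relatives of Fpr2, and reads shared with them could be divided between genes, although no member had a fractional count. Without the 3 high libraries, Fpr1 and Fpr2 stayed called in both sexes, with log2 fold changes of 3.93 and 2.97 in MaAAD and 3.13 and 2.07 in FeAAD.

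Trem1, at chr17:48232768-48246924 on the plus strand, had the largest fitted log2 fold change of the members in either sex. Its counts in controls did not exceed 2 in MaCon or 3 in FeCon, and 7 of the 10 MaCon libraries and 6 of the 10 FeCon libraries held none. It ranged from 0.542 to 14.6 CPM in MaAAD (median 3.91) and from 0.412 to 36.5 CPM in FeAAD (median 1.44), while the MaNonAD libraries held 0, 0, 0.131 and 0.359 CPM and FeNonAD ranged from 0 to 2.42 CPM (median 0.0915). Every AAD library lay above every control of its sex, while FeNonAD overlapped FeAAD. Set against 3 counts per control library, mean Trem1 was at least 23.9-fold higher in MaAAD and at least 30.7-fold higher in FeAAD, bounds that were 15.7 and 5.68 without the 3 high libraries. The fitted log2 fold change, which depends on the prior count, was 7.11 ± 1.10 in males (edgeR adjusted p = 1.53e-06) and 6.83 ± 1.01 in females (adjusted p = 4.86e-07). It was 6.51 ± 0.85 and 4.40 ± 0.83 without the 3 high libraries.

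Clec4d and Clec4e, adjacent on chromosome 6 at chr6:123262111-123275265 on the plus strand and chr6:123281789-123289870 on the minus strand, encode MCL and Mincle, which recognise mycobacterial glycolipids and, in the case of Mincle, a protein released by dead cells. Clec4d ranged from 0 to 0.492 CPM in MaCon (median 0.196) and from 2.03 to 39.2 CPM in MaAAD (median 9.49), with 0.382, 0.601, 0.789 and 2.16 CPM in the MaNonAD libraries. It ranged from 0.133 to 1.58 CPM in FeCon (median 0.471), from 0.183 to 2.68 CPM in FeNonAD (median 0.351) and from 0.495 to 117 CPM in FeAAD (median 5.30). All 7 MaAAD libraries and 7 of 9 FeAAD libraries lay above the highest control. Clec4d had a log2 fold change of 5.85 ± 0.84 in MaAAD (edgeR adjusted p = 4.81e-07) and 5.06 ± 0.76 in FeAAD (adjusted p = 5.64e-07).

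Clec4e held at most 1 count in each MaCon library and ranged from 0.983 to 9.03 CPM in MaAAD (median 2.60), while the MaNonAD libraries held 0, 0.127, 0.20 and 0.299 CPM. It ranged from 0 to 0.38 CPM in FeCon (median 0.0718), from 0 to 1.78 CPM in FeNonAD (median 0.0642) and from 0.182 to 20.0 CPM in FeAAD (median 0.899). All 7 MaAAD and 8 of 9 FeAAD libraries lay above the highest control. Set against 3 counts per control library, mean Clec4e was at least 17.1-fold higher in MaAAD, or 12.3-fold without MaAAD7. The log2 fold change was 6.37 ± 0.92 in males (edgeR adjusted p = 5.09e-07) and 5.01 ± 0.79 in females (adjusted p = 1.45e-06). Without the 3 high libraries, Clec4d and Clec4e stayed called, with log2 fold changes of 5.33 and 5.90 in MaAAD and 2.67 and 3.22 in FeAAD.

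**Figure D2:**
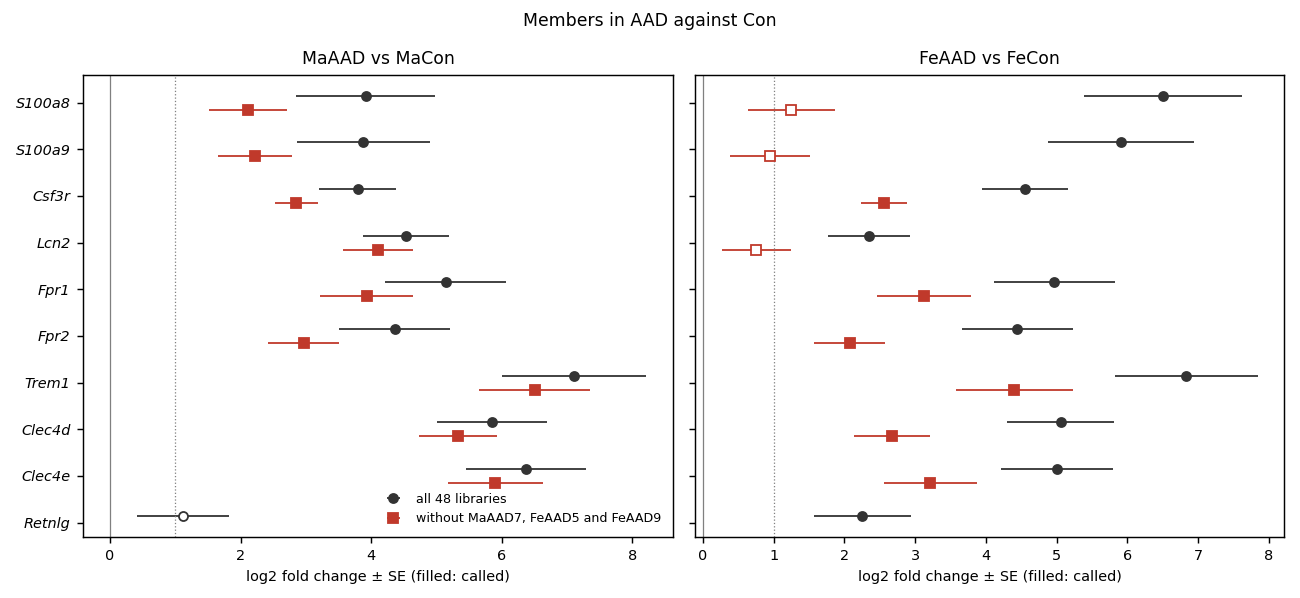
Log2 fold change ± SE of each member in AAD against controls of the same sex, with all 48 libraries (circles) and without MaAAD7, FeAAD5 and FeAAD9 (squares); filled symbols were called and the dotted line marks a log2 fold change of 1. In females the values of S100a8, S100a9 and Lcn2 fell to 1.25, 0.95 and 0.76 without the 3 libraries, and Retnlg has no square because it was then not tested.

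Leaving out the 3 libraries therefore split the members in females. Of 9 members then tested, 9 stayed called in MaAAD against MaCon, where 8.37% of the genes tested in that refit were called higher. In FeAAD against FeCon 6 stayed called, where 8.42% of genes were: the receptors Csf3r, Fpr1, Fpr2, Trem1, Clec4d and Clec4e. In terms of separate libraries, 7 members had every MaAAD library above every MaCon library, as did 6.14% of all tested genes. In females Csf3r and Trem1 separated in this way from controls, as did 3.63% of all tested genes.

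The aortas of BAPN-treated mice without dissection or aneurysm were then compared with both other outcomes. No member was called in MaNonAD against MaCon or in FeNonAD against FeCon by edgeR, and the same count of 0 was given by DESeq2 and by limma voom; 0.381% and 1.67% of all tested genes were called higher. At an unadjusted p below 0.05 the counts were 0 in males and 1 in females, namely Trem1 in FeNonAD, with a log2 fold change of 2.79 ± 1.20 (edgeR adjusted p = 0.111). Without MaAAD7, FeAAD5 and FeAAD9, Trem1 had the same log2 fold change of 2.79 and was called (adjusted p = 0.0263), as were 2.08% of genes called higher in that refit, and without FeNonAD8 it was 0.80 and not called. The median log2 fold change of the members was 1.13 in MaNonAD and 0.44 in FeNonAD. FeNonAD8 was the highest FeNonAD library for the summed members, at 23.2 CPM, and for Csf3r, Lcn2, Fpr1, Fpr2, Trem1, Clec4d and Clec4e, but not for S100a8 or S100a9, at 0.51 and 0.446 CPM. The difference of 4 MaNonAD libraries from controls was estimated with wide errors, such as 2.05 ± 1.07 for Clec4d (edgeR adjusted p = 0.446).

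Against NonAD, all 10 members were called higher in FeAAD, where 6.79% of all tested genes were, and 1 member in MaAAD, where 0.353% were. The median log2 fold change of the members was 3.84 in females and 3.73 in males. In males Lcn2 passed at 3.84 ± 0.92 (edgeR adjusted p = 0.0497), Clec4e, Trem1, Csf3r and Clec4d had adjusted p of 0.0502, 0.0502, 0.051 and 0.0513, and 9 members had an unadjusted p below 0.05. The male count was therefore set by values lying on the threshold: DESeq2 called 9 members and limma voom 6, and 0 to 6 were called when single libraries were left out. The share of all tested genes is not given for these other criteria, so they show only how the male count varied. In FeAAD the log2 fold changes ranged from 2.27 ± 0.73 for Retnlg (adjusted p = 0.0246) to 6.5 ± 1.23 for S100a8 (adjusted p = 0.00019). Without the 3 high libraries, 4 members stayed called in FeAAD against FeNonAD, namely Csf3r, Fpr1, Clec4d and Clec4e, where 4.33% of genes were called higher. In MaAAD against MaNonAD 5 were then called, namely Csf3r, Lcn2, Trem1, Clec4d and Clec4e, where 1.47% of genes were. Every MaAAD library lay above every MaNonAD library for Lcn2, Fpr1, Trem1 and Clec4e, as for 2.97% of all tested genes, and no member separated FeAAD from FeNonAD in this way, as 0.166% of all tested genes did.

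Sex was compared within each outcome and as a difference of differences. No member was called by edgeR between MaCon and FeCon, between MaNonAD and FeNonAD or between MaAAD and FeAAD, where 1.51%, 0.0485% and 0.0693% of all tested genes were called in either direction. At an unadjusted p below 0.05 the counts were 1, 0 and 2 in that order, and DESeq2 and limma voom also called 0. S100a8 was -2.20 ± 0.98 and S100a9 -2.04 ± 0.94 in MaAAD relative to FeAAD on the log2 scale, with edgeR adjusted p of 1.00 for both. These values turned to 1.26 and 1.27 without the 3 high libraries, so the data gave no direction. For the remaining members the log2 differences between MaAAD and FeAAD ranged from -0.76 for Fpr2 to 0.79 for Lcn2. Without the 3 high libraries those still tested ranged from 0.19 for Fpr1 to 1.96 for Lcn2, and none was called.

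The sex differences in the response, tested as interactions, were likewise not called by edgeR. No member passed for AAD minus Con, NonAD minus Con or AAD minus NonAD, where 0.52%, 0.298% and 0% of all tested genes were called in either direction. At an unadjusted p below 0.05 the counts were 1, 0 and 0, and DESeq2 called 0 in each. Lcn2 had the lowest p of the first interaction: its increase from Con to AAD was larger in males by 2.18 ± 0.85 on the log2 scale (edgeR adjusted p = 0.19). This difference passed the test without FeAAD5, and it was 3.35 ± 0.74 without the 3 high libraries (adjusted p = 0.0126), where 0.599% of genes were called. Those libraries were chosen for their high members, FeAAD5 and FeAAD9 among females and MaAAD7 among males. Leaving out the highest FeAAD libraries lowers the female increase, so these refits cannot decide whether the sexes differ. Limma voom called Lcn2 and Clec4d. In controls Lcn2 was lower in males than in females, with medians of 1.27 and 2.40 CPM. The log2 fold change was -1.39, which edgeR did not call (adjusted p = 0.121). Without the 3 high libraries, none of them a control, it was again -1.39 but was called (adjusted p = 0.0427), as were 1.7% of genes. The control libraries were the same in both fits, while the spread is estimated over all groups.

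**Figure D3:**
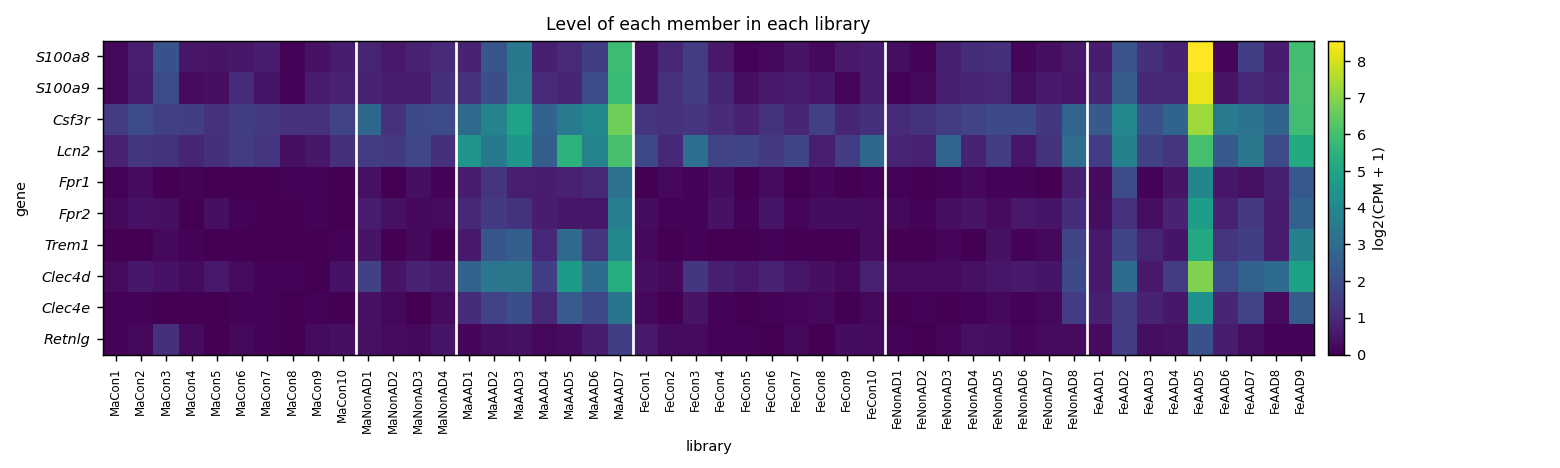
Level of the 10 members (rows) in each of the 48 libraries (columns), as log2(CPM + 1), with white lines between groups. MaAAD7, FeAAD5 and FeAAD9 stand out for nearly every member, and Retnlg stays dark in FeAAD9, at 0.0604 CPM.

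To compare genes with each other, levels were divided by the length of the longest annotated transcript and given as median CPM per kilobase. In controls S100a9, Lcn2 and S100a8 were the highest members, at 0.948, 0.925 and 0.915 in MaCon and at 1.07, 1.75 and 0.86 in FeCon. In MaAAD the order was led by Lcn2 at 15.4 and Clec4d at 7.17, followed by S100a9 at 5.97, S100a8 at 3.98 and Csf3r at 3.81. In FeAAD Clec4d led at 4.01, followed by Lcn2 at 3.19, S100a8 at 2.61, Csf3r at 2.49 and S100a9 at 1.81. Neighbours in this order were not tested against each other. The medians place the alarmins lower than group means would, since their means came largely from MaAAD7, FeAAD5 and FeAAD9.

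Members rose and fell together over libraries to different degrees. The median Spearman's rho over the 45 pairs of members was 0.63 over 48 libraries, 0.73 over the 16 AAD libraries, 0.52 over the 13 AAD libraries left without the 3 high ones, and 0.17 over the 20 control libraries, where most counts were low. These are descriptions of libraries that share depth and cell content. S100a8 and S100a9 had a rho of 0.88 with each other over 48 libraries of log2(CPM + 1). Among genes that are not members, the one most like both by this measure was Chil3, a chitinase-like protein of neutrophils and monocytes, at 0.78 and 0.74. Retnlg was most like Mmp8, the neutrophil collagenase, at 0.66. Trem1 was most like Tifab at 0.91, Clec4d like Lilr4b at 0.90, Lcn2 like Ddx39a at 0.88, Fpr1 like the chemokine receptor Ccr1 at 0.86, Clec4e like Evi2b at 0.85 and Fpr2 like Apobec3 at 0.83. By Pearson's r, which the 3 high libraries dominate, the gene outside the members most like S100a8 was again Chil3, at 0.96, and that most like S100a9 was Cxcr2, at 0.95, while r between the alarmins was 0.99.

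Promoter sequences from 250 bases before to 50 bases after the RefSeq gene start (GRCm38.p6) were found for all 10 members and searched on both strands. The sequences of S100a8 and S100a9 are shown because these neighbours moved together, and those of Lcn2 and Clec4e because they hold the letters TTGCNNAA of a C/EBP site, C/EBP factors being regulators of granulocyte genes. Capitals mark TTGCNNAA, the PU.1 letters GAGGAAGT and an NF-kB motif (3 G, then 5 bases of any kind, then CC), read on either strand. The windows are chr3:90668821-90669120 on the plus strand for S100a8, chr3:90695672-90695971 on the minus strand for S100a9, chr2:32387690-32387989 on the minus strand for Lcn2 and chr6:123289822-123290121 on the minus strand for Clec4e.
S100a8: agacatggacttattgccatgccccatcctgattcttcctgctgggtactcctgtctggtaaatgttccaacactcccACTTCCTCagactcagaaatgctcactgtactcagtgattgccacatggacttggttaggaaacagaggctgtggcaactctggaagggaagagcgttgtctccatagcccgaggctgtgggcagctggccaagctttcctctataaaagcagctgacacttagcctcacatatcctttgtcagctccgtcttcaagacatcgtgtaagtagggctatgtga
S100a9: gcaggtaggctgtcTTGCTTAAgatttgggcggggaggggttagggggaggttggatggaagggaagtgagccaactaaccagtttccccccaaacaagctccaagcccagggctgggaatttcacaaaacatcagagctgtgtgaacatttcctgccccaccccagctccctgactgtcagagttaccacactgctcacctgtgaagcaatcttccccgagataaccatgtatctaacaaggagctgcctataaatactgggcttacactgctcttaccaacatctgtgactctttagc
Lcn2: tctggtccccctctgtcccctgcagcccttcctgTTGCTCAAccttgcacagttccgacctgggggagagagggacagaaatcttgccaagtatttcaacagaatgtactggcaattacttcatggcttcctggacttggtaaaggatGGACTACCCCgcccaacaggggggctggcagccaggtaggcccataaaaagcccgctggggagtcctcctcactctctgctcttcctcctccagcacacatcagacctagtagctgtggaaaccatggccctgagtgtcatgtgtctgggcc
Clec4e: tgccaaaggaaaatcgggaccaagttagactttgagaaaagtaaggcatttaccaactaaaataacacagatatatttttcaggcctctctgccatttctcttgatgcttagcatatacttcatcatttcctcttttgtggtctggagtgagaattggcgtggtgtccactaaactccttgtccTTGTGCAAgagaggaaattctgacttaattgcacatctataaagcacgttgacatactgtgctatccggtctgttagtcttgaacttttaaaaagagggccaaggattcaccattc
TTGCNNAA occurred in the windows of S100a9, Lcn2, Clec4e and Retnlg, starting at positions -236, -216, -66 and -246 relative to the gene start, and in 10.8% of all 32851 promoter windows. GAGGAAGT occurred in that of S100a8 and in 3.2% of all windows, and the NF-kB motif in those of Csf3r and Lcn2 and in 50.8% of all windows. The AP-1 letters TGANTCA occurred in no member window and in 7.81% of all. The members with TTGCNNAA included both the alarmin S100a9, carried by few libraries, and Clec4e, raised in nearly all AAD libraries.

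Genes of the surrounding pathways were examined from lists chosen with earlier results known. Over all tested genes, 9.18% were called higher in MaAAD against MaCon and 9.94% in FeAAD against FeCon. Of 14 tested surface and cytosol genes of mature neutrophils, 11 were called higher in each sex in AAD against controls, and none lower. Il1r2, the decoy receptor for interleukin 1, ranged from 1.02 to 48.9 CPM in MaAAD and from 0.235 to 85.3 CPM in FeAAD, beside at most 0.267 CPM in MaCon and 0.59 CPM in FeCon. Its log2 fold change was 6.52 in males and 5.80 in females (edgeR adjusted p = 5.9e-06 and 4.44e-06), and 4.96 and 1.90 without the 3 high libraries. Cxcr2, the main neutrophil chemokine receptor, reached 423 counts in MaAAD7, 557 in FeAAD5 and 255 in FeAAD9, with medians of 1.24 CPM in MaAAD and 0.244 CPM in FeAAD. Its log2 fold change was 4.48 in males (edgeR adjusted p = 0.000143) and 4.98 in females (adjusted p = 2.85e-05). Without the 3 high libraries Cxcr2 had 3.07 in males and 1.02 in females, where it was not called (adjusted p = 0.188), and the other 7 FeAAD libraries held at most 18 counts. Ly6g, the standard surface marker of mouse neutrophils, held at most 7 counts in any library and was not tested.

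Several granule genes made early in neutrophil development had few counts. Mpo, Elane and Camp, encoding myeloperoxidase, neutrophil elastase and cathelicidin, held at most 4, 3 and 11 counts in any library and were not tested. Of the 8 granule genes tested, 4 were called higher in MaAAD and 5 in FeAAD. Prtn3, encoding the early granule enzyme proteinase 3, had log2 fold changes of 2.44 and 3.51 (edgeR adjusted p = 0.00599 and 0.000134), and 1.37 and 1.84 without the 3 high libraries, where the male value was not called. Cd177, a neutrophil surface and granule protein, had 3.72 and 5.36, with at most 4 counts in the 7 FeAAD libraries other than FeAAD5 and FeAAD9, and was not tested without the 3. Chil3 had 3.37 and 4.28, and 1.89 and 1.45 without the 3. Ngp was called lower in MaAAD, where it held at most 4 counts, with a log2 fold change of -3.72 (edgeR adjusted p = 0.00202), and had -0.19 in FeAAD (adjusted p = 0.857). MaCon3 was the highest MaCon library for Ngp, Camp, S100a8, S100a9 and Retnlg together. Ltf and Pglyrp1 were called in neither sex.

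Of 11 tested genes of neutrophil growth factors, attractants and receptors for attractants, 10 were called higher in each sex, among them the receptor genes C5ar1 and Ltb4r1. Cxcl3, a ligand of Cxcr2, had log2 fold changes of 8.46 in males and 8.36 in females, but at most 0.0733 CPM in controls, so the fitted values depend on the prior count. Il1b, encoding interleukin 1 beta, ranged from 2.89 to 25.7 CPM in MaAAD and from 1.45 to 109 CPM in FeAAD, beside at most 0.401 CPM in MaCon and 0.513 CPM in FeCon. Its log2 fold change was 5.41 in males and 6.84 in females (edgeR adjusted p = 7.08e-07 and 7.07e-09). Csf3, which encodes G-CSF, the ligand of Csf3r, held at most 14 counts in any library and was not tested.

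Downstream of G-CSF, 4 of 14 tested genes were called higher in each sex, among them the feedback inhibitor Socs3 and the myeloid transcription factor Spi1. Socs3 had log2 fold changes of 2.57 and 1.93, and Spi1 of 2.37 and 1.96. The median log2 fold change of the 14 genes was only 0.29 in males and 0.07 in females. Among 10 tested receptors and adaptors of S100A8 and S100A9, 2 were called higher in each sex, Cd14 at 2.26 and 1.79 and Cd33 at 1.63 and 1.52. The median log2 fold change of these 10 genes was 0.37 in males and 0.25 in females. Tlr4, the main receptor, had a log2 fold change of 0.01 in males (edgeR adjusted p = 0.955) and of -0.45 in females (adjusted p = 0.00289), short of the threshold of 1. Ager, the receptor for advanced glycation end products, had 0.05 and -0.27, with adjusted p of 0.928 and 0.508.

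The adaptor chains of TREM1 and of the C-type lectins rose with the receptors. Tyrobp, encoding the TREM1 adaptor DAP12, ranged from 23.5 to 144 CPM in MaAAD and from 17.7 to 332.7 CPM in FeAAD, beside 5.61 to 13.2 CPM in MaCon and 5.74 to 14.1 CPM in FeCon. Its log2 fold change was 2.55 ± 0.41 in males and 2.88 ± 0.40 in females (edgeR adjusted p = 3.61e-06 and 1.66e-07), and neither sex overlapped with its controls. Fcer1g, the signalling chain of Mincle, had 2.41 ± 0.36 and 2.43 ± 0.34 (adjusted p = 7.12e-07 and 2.02e-07). Of 7 tested relatives and adaptors of TREM1, 6 were called higher in each sex, and of 12 tested genes of Mincle and MCL signalling, 9 were. Trem2, a macrophage receptor of the same family, had log2 fold changes of 3.81 and 3.45, and Clec4n, encoding Dectin-2, of 5.22 and 5.27.

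Of 4 tested ligands and relatives of the formyl peptide receptors, Saa3 and Pik3cg were called higher in each sex. Saa3, a serum amyloid A gene, had log2 fold changes of 5.52 and 5.61. Anxa1, whose product annexin A1 is a ligand of Fpr2, ranged from 310 to 393 CPM in MaAAD and from 208 to 326 CPM in MaCon, with log2 fold changes of 0.44 in males and 0.35 in females (edgeR adjusted p = 0.000124 and 0.000706), below the threshold of 1. None of the 9 other tested S100 genes was called higher in either sex, and S100a7a was called lower in MaAAD, at -1.62 (adjusted p = 3.12e-05). None of the 3 tested genes of lipocalin 2 receptors and siderophores was called. In the resistin family Retnla was called lower in MaAAD, at -1.12 (adjusted p = 0.0163), and none was called higher. Retnla had -0.93 (adjusted p = 0.00459) without the 3 high libraries, short of the threshold of 1, and was not called.

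**Figure D4:**
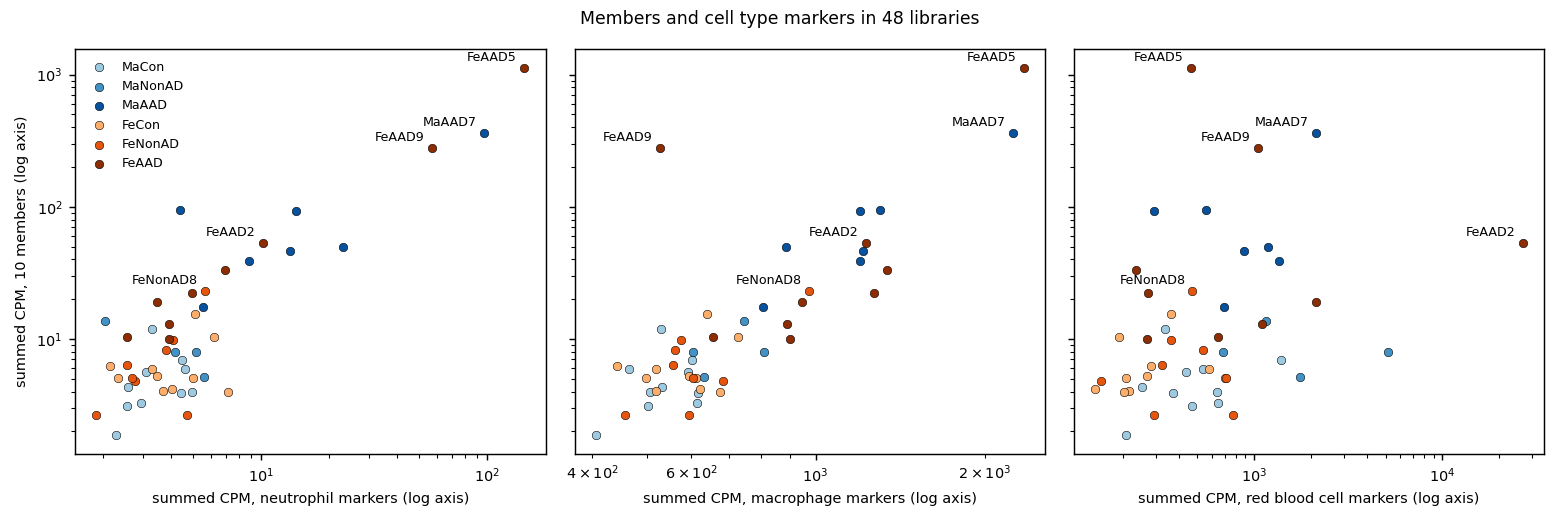
Summed level of the 10 members against the summed level of neutrophil markers, macrophage markers and red blood cell markers in each of the 48 libraries, in CPM on log axes, coloured by group. MaAAD7, FeAAD5 and FeAAD9 lead for neutrophil markers at 96.3, 146 and 56.7 CPM, while FeAAD9 has 527 CPM of macrophage markers, within the control range.

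Markers of several cell types moved with the members. The 9 neutrophil markers, which share no gene with the members, summed to 2.27 to 4.92 CPM in MaCon and 2.15 to 7.11 CPM in FeCon, and to 96.3, 146 and 56.7 CPM in MaAAD7, FeAAD5 and FeAAD9. In the remaining 6 MaAAD libraries they summed to 4.37 to 23.1 CPM, and in the remaining 7 FeAAD libraries to 2.54 to 10.1 CPM. Of these markers 5 were tested, and 4 were called higher in MaAAD and 3 in FeAAD. The 7 monocyte markers summed to 137 to 260 CPM over all controls and to 786, 860 and 286 CPM in the 3 libraries, and 6 and 5 of 7 were called higher in MaAAD and FeAAD. The 10 macrophage markers summed to 406 to 727 CPM over all controls, to 805 to 1302 CPM and 657 to 1342 CPM in the remaining MaAAD and FeAAD libraries, and to 2247, 2348 and 527 CPM in the 3; 7 of 10 were called higher in each sex. FeAAD9 thus had high members and neutrophil markers with macrophage markers at the control level. The part of these cell types in the results was not tested.

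Blood and tissue markers did not follow 1 pattern. The 5 platelet markers summed to 20.3 to 44.9 CPM over all controls and to 399, 720 and 187 CPM in MaAAD7, FeAAD5 and FeAAD9. The red blood cell markers summed highest in FeAAD2, at 26920 CPM, where the members summed to 53.1 CPM, and were 460 CPM in FeAAD5, within the control range of 143 to 1398 CPM, and 2124 CPM in MaAAD7, above it. All 5 tested red blood cell markers were called higher in FeAAD against FeCon and none in MaAAD against MaCon. The 5 heart muscle markers summed to 355 CPM in MaAAD7 and to 20.8 and 12.7 CPM in FeAAD5 and FeAAD9, beside up to 554 CPM in controls. Of these markers, Tnnt2, Actc1 and Myl3 were called lower in FeAAD against FeCon, and none was called in MaAAD against MaCon. Keratinocytes can also make S100a8 and S100a9, and their 5 markers summed to 14.6, 16.2 and 19.5 CPM in the 3 libraries. These markers summed to at most 7.03 CPM in controls, and to 15.4 CPM in MaAAD5, where S100a8 held 1.08 CPM. However, 1 of the 5 held no counts in MaAAD7, and 2 held none in each of FeAAD5 and FeAAD9. Of the 3 keratinocyte markers tested, Krt14 and Sprr1a were called higher in MaAAD and Sprr1a in FeAAD, with fitted log2 fold changes of 5.14 and 4.33 for Sprr1a, the male value depending on the prior count. Smooth muscle markers, which define the tissue, summed to 11408 CPM or more in every library but were lower in AAD, with medians of 39885 CPM in MaCon, 20011 in MaAAD, 41556 in FeCon and 20994 in FeAAD. Acta2, Myh11 and Cnn1 were called lower in MaAAD and Myh11 and Cnn1 in FeAAD. The 5 fibroblast markers summed to 4578 to 6890 CPM over all controls, to 6887 to 13964 CPM in MaAAD and to 6955 to 13492 CPM in FeAAD, and Col1a1 and Lum were called higher in both sexes. The 4 endothelial markers summed to 441 to 946 CPM over all controls and to 388, 264 and 199 CPM in MaAAD7, FeAAD5 and FeAAD9, and none was called in either sex. Their part in the members' differences was not tested.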

How the data were processed

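Strand-specific mRNA libraries of thoracic aorta from 48 mice (lesioned segments in AAD, per the study's methods) were sequenced by the study. The authors deposited 1 table of expected counts per gene, not normalised; the submitters' processing notes name Bowtie2, RSEM 1.3.1 and GRCm39, and no replicates were pooled. The methods define NonAD by microscopy and the labels by gross outcome. Of all values, 4.99% were not whole, none of them of a member, and were rounded. Samples were grouped by their labels; each is 1 mouse. Genes were filtered by group and fitted in edgeR 4.0.16 (R 4.3.3; TMM scaling, robust quasi-likelihood) with 6 group means, giving 9 pairwise comparisons and 3 interactions; the study's methods name DESeq2 with the same thresholds. SE was the absolute log2 fold change divided by the square root of F, and ± values are SE. A level of 3 counts per library served as floor; it covers counting error only. Alternatives used DESeq2 1.42.0 (with its default replacement of outlying counts), limma 3.58.1 (with library quality weights) and other filters, scalings and samples. Gene positions and transcript lengths came from GENCODE M21 (GRCm38), not the build of the counts, and promoters from RefSeq. All members were named; per list, up to 3 called genes with the largest change, plus 14 fixed neutrophil, ligand, receptor and adaptor genes, could be named, and per member the gene most alike by Spearman's rho. The gene most like Csf3r and some list genes are not reported here. The members, lists and motifs were chosen with earlier results of these data known.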

Additional observations from a re-analysis of the deposited data

Results flagged for a closer look

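Of 60 combinations of a member and a group, 14 held a library whose gap to its nearest neighbour on the log2(CPM + 1) scale was too large for the range of its group by Dixon's criterion, which chance exceeds in about 1 of 20 groups. The male control MaCon3 stood apart for S100a8 (3.41 CPM), S100a9 (2.94 CPM), Retnlg (1.27 CPM) and Trem1 (0.134 CPM, which is 2 counts). MaAAD7 stood apart for Fpr1 (8.39 CPM), Fpr2 (11.7 CPM) and Retnlg (1.98 CPM). FeNonAD8 stood apart for Fpr1 (0.701 CPM), Trem1 (2.42 CPM), Clec4d (2.68 CPM) and Clec4e (1.78 CPM), with macrophage markers at 973 CPM, the highest of its group. The others were Fpr1 in MaCon2 (0.196 CPM, 3 counts), Clec4e in FeCon3 (0.38 CPM, 6 counts) and Retnlg in FeCon1 (0.498 CPM, 7 counts). FeAAD5 and FeAAD9 were not singled out.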

How the results depend on the processing

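The counts of members called changed under several alternatives. Shares of all tested genes are given above for edgeR calls with all libraries or without the 3, and not for other criteria or fits. In MaAAD against MaCon 6 were called with the compared groups alone, where 6 were tested. In FeAAD against FeCon 7 were called with limma voom, 4 with the compared groups alone, where 4 passed the filter on low counts, and 6 without MaAAD7, FeAAD5 and FeAAD9, an alternative chosen after seeing the data. In FeAAD against FeNonAD the counts were 6 with limma voom, 5 with the compared groups alone and 4 without the 3 libraries. In MaAAD against MaNonAD they were 9 with DESeq2, 6 with limma voom, 5 with DESeq2 size factors, 0 with no filter, 3 with no robust estimation, 0 with the compared groups alone and 5 without the 3 libraries. In MaCon against FeCon 1 was called with the compared groups alone and 1, Lcn2, without the 3 libraries, and in FeNonAD against FeCon 1, Trem1, without the 3. For the sex difference in AAD minus Con, 2 were called with limma voom and 1 without the 3 libraries. The replicate block gave 0 in MaAAD against MaNonAD and 8 in FeAAD against FeNonAD; the mean correlation of same-numbered libraries ranged from -0.0661 to 0.16, so the numbers did not pair the mice. Where no other cause is stated, the cause was not tested.

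With single libraries left out, 7 to 10 members were called in MaAAD against MaCon (7 without MaAAD7, 10 without MaCon3), 9 to 10 in FeAAD against FeCon and 8 to 10 in FeAAD against FeNonAD (both lowest without FeAAD5), 0 to 6 in MaAAD against MaNonAD (0 without MaNonAD2, MaNonAD3, MaNonAD4, MaAAD3, MaAAD5, MaAAD6 or MaAAD7, 5 without MaNonAD1, MaAAD2 or MaAAD4, and 6 without MaAAD1) and 0 to 1 for the sex difference in AAD minus Con (1 without FeAAD5). Of 779 refits of the 30 called values, 744 stayed called, 35 did not, and none changed sign. Of 2639 refits of values not called, 48 became called and 158 changed sign, among them S100a8 in MaAAD against FeAAD, at 1.08 with limma voom and 0.45 with DESeq2 beside -2.20. Levels near 1 count per library limit Fpr1, Trem1, Clec4e and Retnlg in controls. Pearson's r of S100a8 with S100a9 over 48 libraries was 0.99 with a pseudocount of 1 and 0.96 with 0.1.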

Other observations

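MaAAD7 and FeAAD5 also held high levels of some platelet and eosinophil genes. Of 5 tested platelet markers, 2 (Ppbp and Pf4) were called higher in MaAAD against MaCon and 4 in FeAAD against FeCon. Of the 4 eosinophil markers, 2 held no counts in MaAAD7 and 1 held none in FeAAD5. Ppbp, a chemokine precursor stored in platelets, reached 128 CPM in MaAAD7 and 196 CPM in FeAAD5, with medians of 4.03 CPM in MaAAD and 5.37 CPM in FeAAD, and its log2 fold change against controls was 4.08 in males and 6.41 in females (edgeR adjusted p = 7.37e-05 and 2.26e-07), or 2.11 and 4.21 without MaAAD7, FeAAD5 and FeAAD9. Siglecf, the only tested eosinophil marker, had log2 fold changes of 7.04 and 6.05 (edgeR adjusted p = 2.59e-05 and 1.71e-05). It held at most 1 count in any control library, so these fitted values depend on the prior count. The eosinophil markers summed to 8.92, 15.4 and 4.53 CPM in MaAAD7, FeAAD5 and FeAAD9, and to at most 0.285 CPM in controls. The next highest sums were 4.31 CPM in MaAAD3, 2.44 CPM in FeAAD2, 1.44 CPM in FeAAD6 and 1.24 CPM in MaAAD6. Siglecf was not tested without MaAAD7, FeAAD5 and FeAAD9. All 5 B cell markers were called higher in FeAAD and 3 of 5 in MaAAD, with the highest sum, 28.6 CPM, in FeAAD9, but 4 of 5 were also called higher in MaNonAD against MaCon, where MaNonAD4 held 20.5 CPM, and MaAAD7 held 8.16 CPM, less than the 10.4 CPM of MaAAD1.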
